A study of Danio rerio with 8 samples.

Results

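Genes of the blood clotting and complement systems were followed in RNA from zebrafish (Danio rerio) larvae, with the tissue given as heart, after exposure to the dioxin TCDD. The list held 39 gene symbols from these cascades, and a gene was taken where its symbol in the files equalled a listed one, whatever its value. Of these 37 were rows of the deposited files, which list 25725 genes, while f13b and procb were absent. A filter on low counts kept 35 of the 37 among 20522 genes tested, and c1qa and c1qb fell under it.

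There were 4 samples of larvae kept in DMSO, the solvent, and 4 of larvae given TCDD, a dioxin that binds and activates the aryl hydrocarbon receptor. Exposure began at 2 hours postfertilization and all larvae were sampled at 5 days postfertilization. No strain, genotype, TCDD dose or number of pooled larvae is given in the sources used here, nor whether the samples came from separate clutches, so the tests rest on the spread among these samples, which may be technical.

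Clotting ends with the protease thrombin cutting soluble fibrinogen into fibrin, which a transglutaminase, factor XIII, then cross-links. Tissue factor with factor VII starts the cascade, factors VIII and V act as cofactors, and protein C and plasmin limit or dissolve the clot. Complement is a cascade of plasma proteins that tags microbes with fragments of C3 and ends in a pore, the membrane attack complex. C1q, lectins and the alternative pathway are its starting points. Most of these proteins are made in the liver and secreted into blood, while factor VIII is known from endothelial cells in mammals, and C1q and factor XIII A from macrophages and related blood cells.

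The 8 libraries held 14048563 to 15183023 estimated counts, and 3 counts, the level taken as detected, came to 0.198 to 0.214 CPM (counts scaled to a common library total). This floor is on unscaled library totals, unlike the gene values. CPM of single genes and summed CPM of lists are given on library sizes scaled by the trimmed mean of M values (TMM), each log2 fold change sets TCDD over DMSO and carries its SE, and each adjusted p is that of edgeR's quasi-likelihood test with Benjamini-Hochberg adjustment over all genes tested. A gene with an adjusted p under 0.05 was called changed. The exposure check, the cytochrome gene cyp1a, was at 101 to 164 CPM in DMSO and 6165 to 9733 CPM in TCDD. Liver transcripts were abundant in these samples labelled heart. The liver gene apoa1b was at 15714 to 29810 CPM in all 8 libraries. The heart muscle gene myl7, which encodes a myosin light chain, had 137 to 267 CPM in DMSO and 72.7 to 129 CPM in TCDD and fell (-0.99 ± 0.22, adjusted p = 0.023). Of 10 cardiomyocyte markers 9 had negative log2 fold changes (median -0.42, 2 called lower), and the list summed to 1688 to 2438 CPM in DMSO and 1227 to 1855 CPM in TCDD. Of 7 fibroblast and matrix markers 6 were negative (median -0.30, 0 called by edgeR, 4 at an unadjusted p under 0.05 and 1 lower with DESeq2), with sums of 3013 to 4176 and 1980.2 to 2939 CPM. The part of these markers in the falls of f13a1b, mbl2 and f8 given below was not tested. Library DMSO 1 stood apart from the other DMSO libraries for liver transcripts. The summed CPM of 25 liver markers was 82676 in DMSO 1, 41056 in DMSO 2, 54903 in DMSO 3 and 52035 in DMSO 4, and 41039 to 52663 in TCDD. All 5 hepatocyte-defining markers (fabp10a, apoa2, tfa, ttr and ambp) were present, and 0 of 5 were called by edgeR (2 at an unadjusted p under 0.05, and 1 lower with DESeq2). Their log2 fold changes were all negative (median -0.40). Of the 25 liver markers 20 were negative and 5 positive (median -0.20), with 1 called higher and 0 lower (1 and 4 with DESeq2). Beside these marker lists, 2.99% of all genes tested were called higher and 2.73% lower (4.58% and 5.2% with DESeq2). At an unadjusted p under 0.05 were 22.0% of all genes.

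The member genes shared this pattern of the libraries. Within the DMSO group 31 of the 35 tested members were highest in DMSO 1 on TMM-scaled CPM, as were 21 of the 25 liver markers. Of all 20522 genes tested 7529 were. The TMM factor was 0.825 in DMSO 1 and 0.972 to 1.06 in the other DMSO libraries, and a low factor raises every CPM of its library. As a share of all counts, without that scaling, the members made up 0.574% in DMSO 1 and 0.525%, 0.528% and 0.469% in DMSO 2 to 4. The median member was 0.52 higher in DMSO 1 than the mean of the other DMSO libraries on the log2 scale, the median liver marker 0.71 and the median of all genes 0.03. Within the TCDD group TCDD 2 was highest for 19 members and TCDD 4 lowest for 20. Over all 20522 genes these counts were 5303 and 6594. The coefficient of variation of the median member was 22.6% in DMSO and 13.7% in TCDD, and it was larger in DMSO for 28 of the 35. It was not compared over all genes.

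The members covered a wide range of levels, read here as TPM, the authors' length-scaled value, in DMSO (mean ± SD, n = 4). The fibrinogen chains led, with fgg at 365 ± 61.2 TPM, fgb at 363 ± 47.1 and fga at 259 ± 50.7. The spreads of fgg and fgb overlap, so their order is not set. Next came c9, a pore-forming protein of the membrane attack complex, at 246 ± 14.0 TPM, and kng1 (kininogen, the bradykinin precursor) at 207 ± 11.4 TPM. The C1q chains were lowest, at 0.89 ± 0.523 TPM for c1qa, 1.46 ± 0.325 for c1qb and 1.36 ± 0.103 for c1qc. In TCDD fgg, fgb and fga again held ranks 1 to 3. The complement gene c3a.1 stood at rank 10 in DMSO and 7 in TCDD, and f13a1b at 21 and 28. Genes not called moved as well: f9b stood at 24 and 19, c8g at 17 and 22, and cfd at 6 and 10. Apart from these ranks, TPM was not used to compare the groups, since the median gene tested was 0.28 higher in TCDD on its log2 scale.

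**Figure D1:**
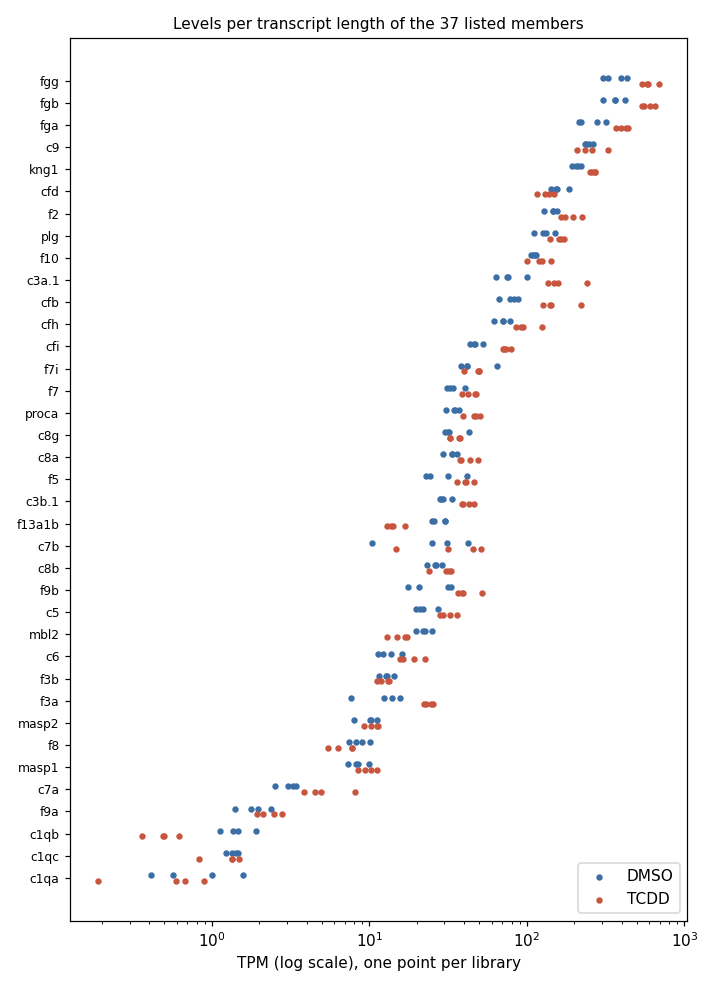
Levels of the 37 listed members as TPM on a log axis, 1 point per library, blue for DMSO and red for TCDD, ordered by the DMSO mean. Fibrinogen chains are at the top and the C1q chains, near 1 TPM, at the bottom; all genes sit 0.28 further right in TCDD at the median on a log2 scale, so a shift of that size is not particular to these genes.

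Between the groups 5 members changed: f3a and c3a.1 rose, and f13a1b, mbl2 and f8 fell. Thus 2 of 35 were called higher, where 2.99% of all genes tested were, and 3 of 35 lower, where 2.73% were. In either direction the share of members was 14.3% against 5.72% of all genes. The median log2 fold change of the members was 0.02, beside 0.00 for all genes tested, with 18 positive and 17 negative. At an unadjusted p under 0.05 were 13 of the 35, against 22.0% of all genes. In 7 of the 35 members (20.0%) the groups did not overlap, against 14.0% of all genes. Of these, 4 were higher in TCDD and 3 lower, where 7.6% and 6.35% of all genes were. The 17 coagulation members held 3 of the calls and the 18 tested complement members 2.

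**Figure D2:**
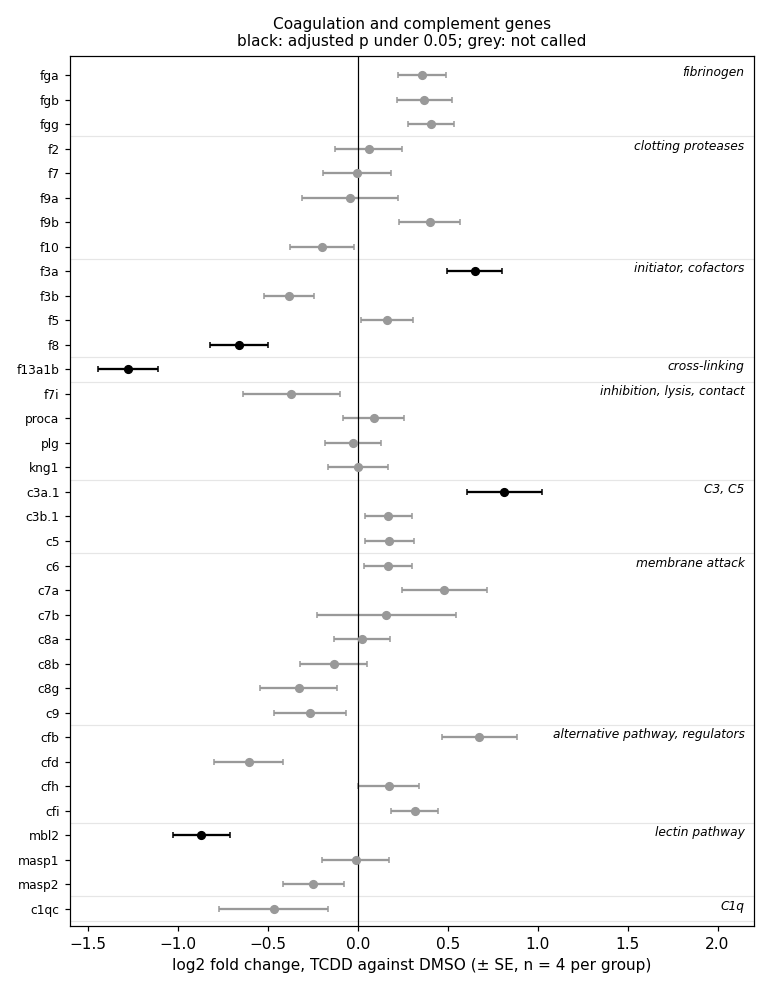
Log2 fold change (TCDD against DMSO) with its SE for the 35 tested members, ordered by role; black points have an adjusted p under 0.05. The 5 black points are f3a, f8, f13a1b, c3a.1 and mbl2, and most others lie within 0.5 of 0.

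The cross-linking gene f13a1b (gene ID 561287), which encodes the factor XIII A chain that binds fibrin strands together, had the largest change of the 35. Its paralog f13a1a.1, on the list of related coagulation genes, was not among the genes called there. Its level was 94.4, 58.4, 58.8 and 61.2 CPM in DMSO 1 to 4 and 28.8, 27.7, 32.3 and 23.7 CPM in TCDD 1 to 4. All TCDD libraries were below all DMSO libraries, and DMSO 1 was well above the other 3. The fall was 2.42-fold (log2 fold change -1.28 ± 0.17, adjusted p = 0.0016). Without DMSO 1 and TCDD 2 it was -1.08 (adjusted p = 0.0011), and per liver transcript, with the summed liver markers as the library size, -1.07 (adjusted p = 0.017).

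Macrophages and platelets are known to hold factor XIII A in mammals. Markers of macrophages and of thrombocytes, the fish counterpart of platelets, therefore stand beside f13a1b. The 4 macrophage-defining markers (mpeg1.1, mfap4, marco and csf1ra) summed to 19.8 to 38.8 CPM in DMSO and 24.1 to 28.9 CPM in TCDD, and 0 of 4 were called by edgeR (1 at an unadjusted p under 0.05, and 1 lower with DESeq2). The wider macrophage list summed to 1677 to 2065 CPM in DMSO and 2016 to 2268 CPM in TCDD, with 1 of 15 called lower and 0 higher (4 and 0 with DESeq2). The share of all genes called lower was 2.73% (5.2% with DESeq2). By gene, 9 of the 15 had negative log2 fold changes and the median was -0.17, so the sum and most single markers differ in direction. Of the 7 thrombocyte markers 6 could be tested and 0 were called by edgeR or DESeq2 (1 at an unadjusted p under 0.05), but 5 of the 6 were negative (median -0.27). The marker gp1bb was at 4.51 to 6.78 CPM in DMSO and 2.89 to 4.50 CPM in TCDD (-0.62 ± 0.19, adjusted p = 0.083), and itga2b, under the filter, at 0.673 to 1.05 and 0.321 to 0.554 CPM, both lower without overlap. The ranges of gp1bb nearly met. Of the 6 tested markers 1 was higher and 1 lower without overlap, where 7.6% and 6.35% of all genes were. The list summed to 294 to 327 CPM in DMSO and 330 to 392 CPM in TCDD, nearly all of it thbs1b, a gene not restricted to thrombocytes, with means of 293 and 339 CPM. These 3 markers were named after their values were seen. Their part in the value of f13a1b was not tested. None of the defining macrophage markers was at 0. In bulk RNA, fewer cells of a type and less RNA per cell cannot be told apart.

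The 3 fibrinogen chains, which assemble into 1 protein, each had a higher mean in TCDD, but none was called (0 of 3, all 3 at an unadjusted p under 0.05). The gamma chain gene fgg was at 545, 479.7, 533 and 443 CPM in DMSO and 618, 671, 635 and 729 CPM in TCDD. The groups did not overlap, and the log2 fold change was 0.41 ± 0.13 (adjusted p = 0.083). The alpha chain gene fga was at 463 to 625 CPM in DMSO and 675 to 771 CPM in TCDD, also without overlap (0.35 ± 0.13, adjusted p = 0.146). The beta chain gene fgb was at 465 to 722 CPM in DMSO and 674 to 775 CPM in TCDD, where the highest DMSO library, DMSO 1, overlapped the TCDD range (0.37 ± 0.15, adjusted p = 0.186). Without DMSO 1 fgb passed (adjusted p = 0.027). With DESeq2 fga (adjusted p = 0.031) and fgg (0.0030) passed. All 3 chains passed with library size alone (0.030 for fga, 0.024 for fgb and 0.0165 for fgg), and fgg passed with offsets for implied length (0.033). The ratio of fga to fgb counts within a library was 0.865 to 1.102 in DMSO and 0.959 to 1.02 in TCDD, and that of fga to fgg was 1.04 to 1.17 and 1.01 to 1.15. Neither difference between the groups passed (exact permutation p = 0.857 and 0.400).

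Tissue factor, the cell-surface protein that starts clotting, has the paralogs f3a and f3b in zebrafish. The level of f3a (gene ID 567257) was 11.3, 11.3, 15.6 and 17.5 CPM in DMSO and 21.1, 23.4, 23.0 and 19.9 CPM in TCDD, with no overlap. It rose 1.57-fold (0.65 ± 0.15, adjusted p = 0.032). It no longer passed with any of 5 libraries left out: DMSO 2 (adjusted p = 0.0598), DMSO 3 (0.0656), TCDD 1 (0.0793), TCDD 2 (0.105) and TCDD 3 (0.098). Leaving out the pair DMSO 1 and TCDD 2 gave 0.123, and the liver scaling 0.185. The paralog f3b was at 11.5 to 16.8 CPM in DMSO and 10.5 to 12.2 CPM in TCDD and was not called (-0.38 ± 0.14, adjusted p = 0.132), although it passed as lower without DMSO 2 (0.036). The ratio of f3a to f3b counts in the same library was 0.668, 0.982, 0.991 and 1.22 in DMSO and 2.02, 1.92, 2.16 and 1.74 in TCDD. The groups did not overlap (exact two-sided permutation p = 0.0286, the smallest that 4 against 4 allows, and 0.0857 adjusted over the 12 ratios compared). All 12 pairs were picked with the values in view, so these p values are no independent test. Of the 12 ratios only f3a to f3b, f8 to vwf, cfb to cfd and c8a to c8g were without overlap. Among the overlapping ones were f9a to f9b, f7 to f7i, c3a.1 to c3b.1, c7a to c7b and masp1 to masp2 (adjusted permutation p of 0.114 to 0.717).

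Among the cofactors f8 fell and f5 did not pass. The gene f8 (gene ID 100302404) encodes factor VIII, the cofactor of factor IX that is lacking in haemophilia A. It was at 80.4, 60.4, 65.6 and 54.8 CPM in DMSO and 48.4, 48.1, 37.7 and 31.0 CPM in TCDD, with no overlap. The fall was 1.58-fold (-0.66 ± 0.16, adjusted p = 0.036). It no longer passed when DMSO 1 (0.0597), DMSO 3 (0.0991), TCDD 3 (0.0945) or TCDD 4 (0.0599) was dropped, and the same held for scaling by library size (0.0504) or by liver transcripts (0.452). Without both DMSO 1 and TCDD 2 it was kept (0.049). The factor V gene f5 was at 144 to 214 CPM in DMSO and 175 to 244 CPM in TCDD (0.16 ± 0.15, adjusted p = 0.562).

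The carrier of factor VIII in plasma is von Willebrand factor, a product of endothelial cells and of thrombocytes or platelets. Its gene vwf, on the list of related coagulation genes, rose from 23.0 ± 3.72 to 42.9 ± 6.68 CPM (SD, n = 4; 0.90 ± 0.14, adjusted p = 0.0046). The ratio of f8 to vwf counts was 2.84, 2.95, 2.90 and 2.68 in DMSO and 1.04, 0.961, 0.954 and 0.876 in TCDD. It varied little within a group, and the groups lay far apart (a difference of -1.57 on the log2 scale, and -1.61 to -1.53 with any library left out). The exact permutation p was 0.0286 (adjusted 0.0857). Since f8 and vwf were paired with their values in view, this p is no independent test. Beside this, 4 of 14 endothelial markers were called lower (tek, flt4, lyve1b and mrc1a, named after their values were seen) and 0 higher (7 and 0 with DESeq2). Of all genes 2.73% were called lower (5.2% with DESeq2). By log2 fold change 13 of the 14 were negative and 1 positive (median -0.39). Without overlap 8 were lower in TCDD and 1 higher, where 6.35% and 7.6% of all genes were. The list summed to 318 to 385 CPM in DMSO and 247 to 308 CPM in TCDD. None of the 14 was at 0, and their part in the values of f8 and vwf was not tested.

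**Figure D3:**
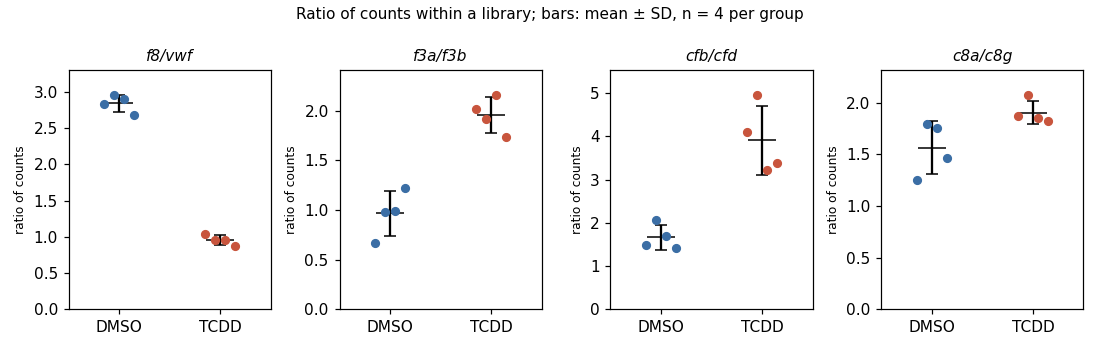
Ratio of the counts of 2 genes in the same library for f8 to vwf, f3a to f3b, cfb to cfd and c8a to c8g, 4 libraries per group, with the mean and SD. In each of the 4 panels the groups do not overlap, and the pairs were picked with the values in view. These are the only ratios of the 12 compared without overlap. The ratio of f8 to vwf runs from 2.68 to 2.95 in DMSO and from 0.876 to 1.04 in TCDD.

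The vitamin K-dependent proteases of the cascade were not called, 0 of 5 by edgeR or DESeq2 (1 at an unadjusted p under 0.05). The prothrombin gene f2 was at 264 to 459 CPM in DMSO and 283 to 421 CPM in TCDD (0.06 ± 0.19, adjusted p = 0.887), f10 at 183 to 320 and 164 to 252 CPM (-0.20 ± 0.18), and f7 at 44.4 to 85.2 and 48.1 to 64.0 CPM (-0.01 ± 0.19). For f2, f10, f7 and f9a DMSO 1 was the highest of all 8 libraries on TMM-scaled CPM. The factor IX paralogs differed in level: f9b was at 27.8 to 49.3 CPM in DMSO and 44.5 to 65.9 CPM in TCDD (0.40 ± 0.17, adjusted p = 0.201), while f9a was at 1.88 to 4.07 CPM over all libraries (-0.05 ± 0.27). In the RefSeq gene table (assembly GRCz12tu, used for gene order only) f7, f7i and f10 lie next to each other.

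Genes that hold clotting back or dissolve the clot, grouped here with the kininogen gene kng1, also did not pass, 0 of 4 by edgeR or DESeq2 (0 at an unadjusted p under 0.05). The gene f7i, a zebrafish relative of factor VII known as an inhibitor of clotting, was at 127 CPM in DMSO 1 and at 45.8 to 62.1 CPM in the other DMSO libraries, against 45.5 to 62.6 CPM in TCDD (-0.37 ± 0.27, adjusted p = 0.457; 0.02 without DMSO 1). The protein C gene proca (0.09 ± 0.17, adjusted p = 0.811), the plasminogen gene plg (-0.03 ± 0.15, 0.937) and kng1 (-0.00 ± 0.17, 0.9997) had values close to 0. The means of plg were 400.04 ± 73.6 CPM in DMSO and 392 ± 50.0 CPM in TCDD.

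**Figure D4:**
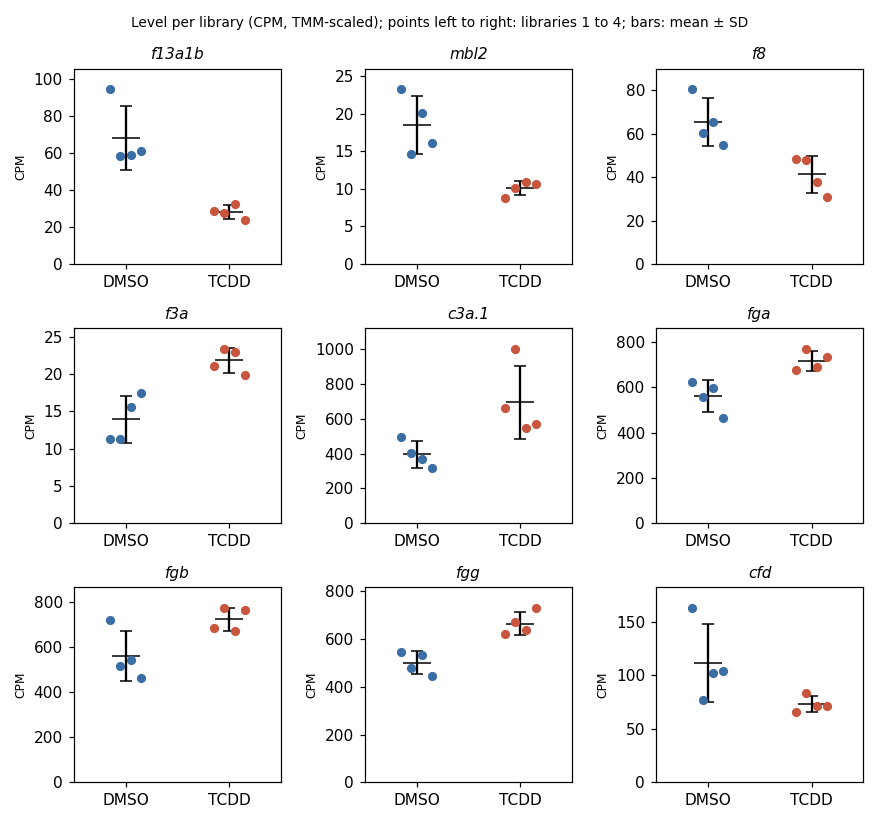
CPM per library on TMM-scaled library sizes for 9 members, 4 libraries per group in the order 1 to 4, with the mean and SD. In f13a1b, mbl2, f8, f3a, c3a.1, fga and fgg the groups do not overlap; in fgb and cfd they do, and DMSO 1 is the highest DMSO point for f13a1b (94.4 CPM), mbl2 (23.2), f8 (80.4) and cfd (163).

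In complement, c3a.1 (gene ID 321046) rose. It encodes a C3 protein, the component on which all starting pathways meet. Its level was 495, 402, 368 and 315 CPM in DMSO and 659, 1002, 545 and 569.7 CPM in TCDD, with TCDD 2 the highest and no overlap between the groups. The rise was 1.76-fold (0.81 ± 0.21, adjusted p = 0.043). It no longer passed with DMSO 2 (0.0536), DMSO 3 (0.134), DMSO 4 (0.101), TCDD 1 (0.0803) or TCDD 2 (0.0947) left out, or with offsets for length (0.0992), and it was kept without both DMSO 1 and TCDD 2 (0.019) and per liver transcript (0.029). C3 of the other branch, c3b.1, was at 189 to 262 CPM in DMSO and 213 to 260.1 CPM in TCDD (0.17 ± 0.13, adjusted p = 0.489). C5, whose cleavage opens the terminal pathway, was at 103 to 143 and 112 to 155 CPM (c5; 0.18 ± 0.14, adjusted p = 0.489).

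Of the further C3 copies of the c3a family on the list of related complement genes, c3a.2 and c3a.3 were called. The copies c3a.4, c3a.5 and c3a.6 were not among the genes called. The gene c3a.3 rose 2.49-fold, from 115, 113, 87.6 and 76.7 CPM in DMSO to 229, 366, 190.7 and 189.9 CPM in TCDD (1.31 ± 0.22, adjusted p = 0.0066). The gene c3a.2 rose from 211 ± 50.9 to 402 ± 147 CPM (0.93 ± 0.24, adjusted p = 0.043), with an overlap of DMSO 1 (287 CPM) and TCDD 3 (284 CPM). It did not pass with DMSO 2 (0.0774), DMSO 3 (0.132), DMSO 4 (0.0955), TCDD 1 (0.0664), TCDD 2 (0.0805) or TCDD 4 (0.0539) dropped, or with offsets for length (0.123). Reads of similar gene copies can be counted at the wrong copy, and how alike these copies are was not compared. This caveat covers c3b.1 as well, whose estimated counts were fractional in all 8 libraries (3286.19 in DMSO 1), while those of c3a.1 were whole. The sum of the 6 genes c3a.1 to c3a.6, picked with the values in view, is given as well. It was 994, 780.3, 706 and 630.1 CPM in DMSO and 1329, 2113, 1100 and 1195 CPM in TCDD, without overlap. Most of the sum came from c3a.1, c3a.2 and c3a.3, so it does not stand for the other copies. The related component C4 gene c4b rose as well, from 24.2 ± 5.37 to 55.2 ± 20.9 CPM (1.19 ± 0.25, adjusted p = 0.020), but did not pass with DMSO 1 (0.0771) or DMSO 3 (0.0608) dropped or with offsets for length (0.0535).

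In all 4 of these genes, c3a.1, c3a.2, c3a.3 and c4b, TCDD 2 was the highest library. It was also the highest for cfb, whose protein is the protease of the alternative pathway's C3 convertase. The level of cfb was 243, 158, 172 and 149 CPM in DMSO and 269, 415, 228 and 242 CPM in TCDD. The groups overlapped through DMSO 1, and the gene was not called (0.68 ± 0.21, adjusted p = 0.085), but it passed when DMSO 1 (0.028) or the pair DMSO 1 and TCDD 2 (0.018) was left out, with DESeq2 (0.024) and with library size alone (0.0175). Factor D, the protease that activates factor B, had a lower mean in TCDD: cfd was at 163, 77.1, 102 and 104 CPM in DMSO and 65.8, 83.9, 71.1 and 71.8 CPM in TCDD (-0.61 ± 0.19, adjusted p = 0.091). It passed without DMSO 2 (0.018) and with DESeq2 (0.036). With offsets for length cfd was at -0.37 (adjusted p = 0.215), its implied length being 654 bases. The ratio of cfb to cfd counts was 1.43 to 2.06 in DMSO and 3.21 to 4.94 in TCDD (exact permutation p = 0.0286, adjusted 0.0857). This pair too was picked with the values in view, so the p is no independent test. The regulators of C3b, cfh (0.17 ± 0.17, adjusted p = 0.602) and cfi (0.32 ± 0.13, 0.183), were not called, although cfi passed without DMSO 1 (0.0196) and with library size alone (0.022).

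The 7 components of the membrane attack complex gave no call, 0 of 7 by edgeR or DESeq2 (0 at an unadjusted p under 0.05). Their log2 fold changes ran from -0.33 ± 0.21 for c8g to 0.48 ± 0.24 for c7a (adjusted p = 0.399 and 0.260). The pore-forming c9 was at 389.9 to 672 CPM in DMSO and 326 to 534 CPM in TCDD (-0.27 ± 0.20, adjusted p = 0.468). The gene of C6, which binds C5b at the start of the pore, was at 34.7 to 42.5 CPM in DMSO and 36.0 to 54.1 CPM in TCDD (c6; 0.17 ± 0.13, adjusted p = 0.494), and the C8 chain genes c8a (0.02 ± 0.16, 0.954) and c8b (-0.14 ± 0.18, 0.719) had values close to 0. The gene c7b had another library pattern: it was at 36.6 CPM in DMSO 1 and 32.7 CPM in TCDD 2, and at 66.0 to 109.8 CPM in the other 6 libraries. The paralog c7a was instead highest in those libraries within each group, at 20.5 CPM in DMSO 1 and 34.7 CPM in TCDD 2. The ratio of c8a to c8b, neighbouring genes for 2 chains of C8, was 1.01 to 1.17 in DMSO and 1.06 to 1.34 in TCDD, and that of c8a to c8g was 1.25 to 1.79 and 1.82 to 2.07. The c8a to c8g ratio did not overlap between groups (exact permutation p = 0.0286, adjusted 0.0857), though the ranges nearly met. Implied lengths were 1740 bases for c8a and 1095 for c8g, and the ratio was not adjusted for length. The pair was picked with the values in view, so the p is no independent test.

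Of the lectin pathway, mbl2 (gene ID 100008009) fell. It encodes a mannose-binding lectin, a plasma protein that recognises sugars on microbes, and RefSeq gives hbl3 as a synonym. Its level was 23.2, 14.6, 20.1 and 16.0 CPM in DMSO and 8.77, 10.1, 10.9 and 10.7 CPM in TCDD, with no overlap. The fall was 1.83-fold (-0.87 ± 0.16, adjusted p = 0.0093). It was called without any 1 library (adjusted p up to 0.0396), without both DMSO 1 and TCDD 2 (0.0301), and with length offsets (-0.69, 0.012), which bear on it because its implied length was 786 bases. Per liver transcript the value was -0.65 and the call was lost (0.2496). The proteases that act with such lectins were not called: masp1 was at 12.1 to 21.2 CPM in DMSO and 12.0 to 16.5 CPM in TCDD (-0.01 ± 0.19), and masp2 at 17.4 to 29.4 and 16.9 to 21.0 CPM (-0.25 ± 0.17). The collectin gene colec11, on the related list, fell from 5.68 ± 1.54 to 3.19 ± 0.305 CPM (-0.82 ± 0.20, adjusted p = 0.035). That call did not hold with DMSO 1 (0.058), DMSO 3 (0.0793), TCDD 1 (0.0841), TCDD 2 (0.0718) or TCDD 3 (0.0884) dropped, nor with the pair DMSO 1 and TCDD 2 dropped (0.0999) or per liver transcript (0.431).

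C1q, the recognition protein of the classical pathway, is built of 3 chains, whose genes lie side by side in the RefSeq table. The chains were near the detection floor. Of c1qb there were 21, 9, 13 and 14 counts in DMSO and 3, 4, 5 and 4 in TCDD, without overlap. In the fit with no filter on low counts it was called lower (-1.91 ± 0.42, adjusted p = 0.020, where 2.1% of all genes were called lower). The gene c1qa had 41 counts in all in DMSO and 24 in TCDD (-0.85 ± 0.47 in that fit, adjusted p = 0.349). For c1qc there were 53 and 41 (-0.47 ± 0.33 in that fit, adjusted p = 0.467, and -0.47 ± 0.31, adjusted p = 0.396, in the main fit). The macrophage markers given above for f13a1b stand beside these values too.

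The lists of related genes gave calls in both directions. Of 36 tested coagulation genes 2 rose and 1 fell (8.33% against 5.72% of all genes). Besides vwf, plat rose, the gene of tissue plasminogen activator, which turns plasminogen into plasmin, from 5.90 ± 0.665 to 9.03 ± 1.15 CPM (0.61 ± 0.15, adjusted p = 0.031). Its groups did not overlap, but leaving out any 1 library except TCDD 4 ended the call (adjusted p of 0.0505 to 0.101), as did leaving out the pair DMSO 1 and TCDD 2 (0.1102) or the liver scaling (0.189). The fall was that of fgl2b, a fibrinogen-like gene, from 6.78 ± 1.45 to 3.03 ± 0.923 CPM (-1.16 ± 0.24, adjusted p = 0.016; 0.0618 without both DMSO 1 and TCDD 2 and 0.126 per liver transcript). Of 33 tested complement genes 3 rose and 3 fell (18.2%). Besides colec11, cd59, which encodes a membrane inhibitor of the attack complex, fell from 21.1 ± 1.77 to 13.6 ± 1.02 CPM without overlap (-0.63 ± 0.11, adjusted p = 0.0091; 0.564 per liver transcript). The gene rca2.2, named as a regulator of complement activation, fell from 8.67 ± 2.26 to 4.63 ± 1.16 CPM (-0.90 ± 0.22, adjusted p = 0.036). It did not pass with DMSO 1 (0.0637), DMSO 4 (0.0859), TCDD 1 (0.0994), TCDD 2 (0.104) or TCDD 4 (0.0686) dropped, with the pair DMSO 1 and TCDD 2 dropped (0.141), or by library size alone (0.0605) or liver scaling (0.356).

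**Figure D5:**
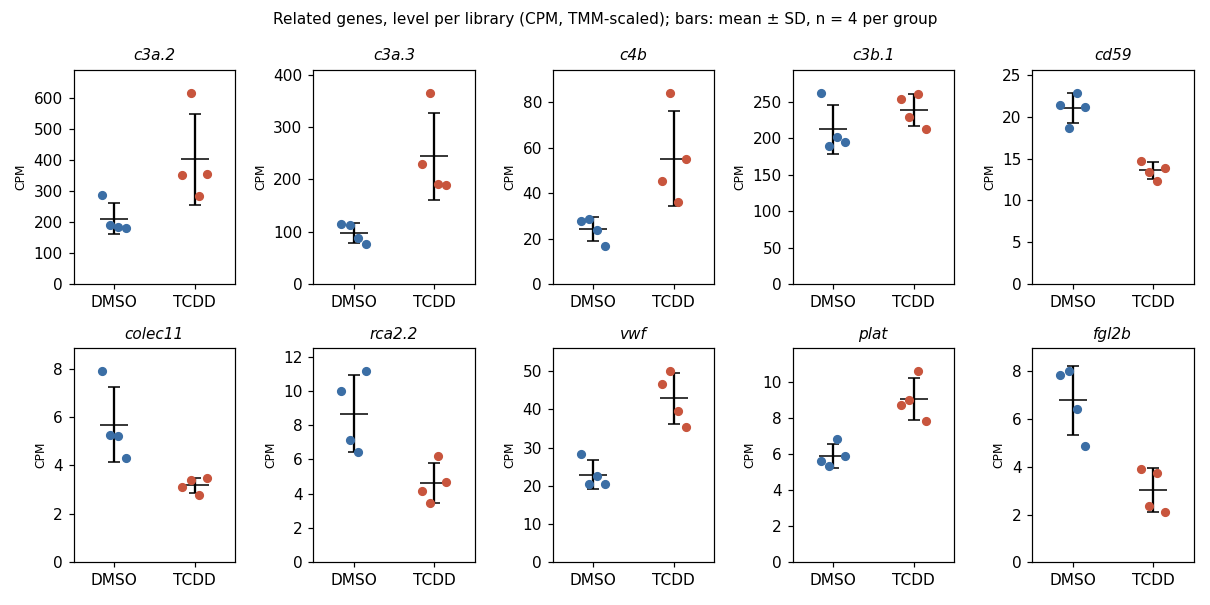
CPM per library on TMM-scaled library sizes for the 9 called genes of the related lists, with c3b.1 for comparison; 4 libraries per group, with the mean and SD. TCDD 2 is the highest point for c3a.2 (617 CPM), c3a.3 (366) and c4b (84.3), while c3b.1 overlaps between the groups.

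The number of members called depended on which libraries entered, and each count is set beside the share of all genes called the same way. Higher were 5 members without DMSO 1 (2.92% of all genes), 0 without DMSO 2 (3.29%), 0 without DMSO 3 (1.42%) and 1 without DMSO 4 (2.11%). With TCDD libraries left out, 0 were higher without TCDD 1 (1.74%), 0 without TCDD 2 (1.42%), 1 without TCDD 3 (1.92%) and 2 without TCDD 4 (2.86%). Lower were 2 without DMSO 1 (2.03%), 6 without DMSO 2 (5.66%), 2 without DMSO 3 (1.1%) and 3 without DMSO 4 (2.3%). Without TCDD 1 (1.41%), TCDD 2 (1.37%), TCDD 3 (1.72%) or TCDD 4 (1.8%) there were 3 lower. Without both DMSO 1 and TCDD 2 there were 2 higher (1.64%) and 3 lower (1.35%). Of the 5 called members, f13a1b and mbl2 kept their call without any 1 library.

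The scaling and the tool moved these counts as well. DESeq2 called 5 members higher (4.58% of all genes) and 4 lower (5.2%). Library size alone gave 7 higher (4.57%) and 2 lower (1.81%), and over all genes 937 higher and 372 lower, against 614 and 560 with TMM. With the summed liver markers as the library size, 1 was higher (0.77%), c3a.1, and 1 lower (0.322%), f13a1b. With no filter 2 were higher (2.33%) and 4 lower (2.1%), and with offsets for length 2 were higher (2.94%) and 3 lower (2.54%).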

How the data were processed

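Each library's file holds an estimated (expected) count, a TPM and an FPKM per gene, deposited by the authors. The deposited expected counts are not normalized, and TPM and FPKM were scaled for length and depth by the authors, per the file headers. FPKM served only to imply a length per gene, from its count and the library total. These implied lengths were not compared with annotated transcripts and may be shorter than them. The submitters' processing notes name Bowtie2 and GRCz11, and the quantifier is not given in the sources used here. Per the labels' protocols, Trizol was used for RNA and a SMARTER kit for the mRNA libraries. Whether counting used strand is not given there, so reads of overlapping genes cannot be told apart. Reads were not counted by molecule, so floors cover counting error only.

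Members were matched by symbol. The members and lists were chosen with earlier results of these data known. All 39 members were to be named, with every called gene of the related lists (44 coagulation and 44 complement symbols, of which 40 and 38 matched other genes of the files and 36 and 33 were tested). The pairs of genes for within-library ratios, an added alternative, were picked with the values in view, and the sum of the c3a family likewise.

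The counts, rounded, went into edgeR 4.0.16 under R 4.3.3 (filterByExpr by group, TMM, robust quasi-likelihood F-test, no block). The SE is the size of the log2 fold change over the square root of F. The test was tried on simulated data. Alternatives used DESeq2 1.42.0, limma 3.58.1 (voom), other scalings, filters, length offsets (span 0.3), the replicate block and libraries left out. The numbers 1 to 4 were not taken to pair samples. No libraries of a group were copies (chi-square per degree of freedom at least 9.00). Python 3.11.15, SciPy 1.17.1 and matplotlib 3.10.9 were used for ratios and figures.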

Additional observations from a re-analysis of the deposited data

Results flagged for a closer look

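Within a group of 4, a library was picked out where its gap to the nearest other library passed Dixon's critical value for 4 samples, in 58 items (members, called related genes and ratios) and 116 groups. Chance picks out about 1 group in 20. There were 5, no more than that share. In 4 of the 5 the library was DMSO 1, the one with the most liver transcripts. Gene values were TMM-scaled CPM, and the TMM factor of DMSO 1, 0.825 and the lowest of all, raises its CPM. The picks were not repeated on unscaled library totals. For f13a1b DMSO 1 was at 94.4 CPM and the others at 58.4 to 61.2. For cfi it was at 125.9 CPM against 87.0 to 92.6, for masp1 at 21.2 CPM against 12.1 to 13.3, and for c3a.2 at 287 CPM against 180.3 to 190.7. For c1qc TCDD 1 was at 0.472 CPM against 0.733 to 0.771, from 7 counts.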

How the results depend on the processing

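The value of f13a1b kept its direction and call in all 20 alternatives (-1.35 to -1.07). Calls of members higher and lower were 0 and 2 at an adjusted p under 0.01, 4 and 4 under 0.10, 5 and 4 with DESeq2, 7 and 2 with library size alone and 1 and 1 per liver transcript; without 1 library they were 0 to 5 and 2 to 6. Over all genes they were 191 and 136 at 0.01, 995 and 1075 at 0.10, 939 and 1068 with DESeq2, 937 and 372 with library size alone (71.6% of calls higher, against 52.3%), 158 and 66 per liver transcript, 338 and 278 without both DMSO 1 and TCDD 2, and 294 to 682 and 229 to 1172 without 1 library. Library size alone moved the median gene by 0.13 and the liver scaling by 0.16.

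Related coagulation genes called higher were 1 at 0.01, per liver transcript and without both libraries (1 to 2 without 1 library), and called lower 0 at 0.01, per liver transcript and without both, and 2 at 0.10. Related complement genes called higher were 1 at 0.01 and with length offsets (1 to 3 without 1 library), and lower 1 at 0.01 and 0 per liver transcript (1 to 4 without 1 library). The members' median ran from -0.05 to 0.21 without 1 library.

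The following members, none of them called, changed sign; most were near 0, while f7i was at -0.37 and changed sign only without DMSO 1. For kng1 the value was 0.000421 with DESeq2, 0.000429 with RLE factors, 0.0277 with voom, 0.156 with library size alone, 0.228 per liver transcript, 0.0308 with the replicate block, 0.135 with length offsets and 0.146 without both libraries. In the same order from voom on, f7 was at 0.0323, 0.152, 0.224, 0.0301, 0.0367 and 0.186, and masp1 at 0.0206, 0.139, 0.201, 0.0113, 0.00499 and 0.167. For f9a the values were 0.0235 (voom), 0.113 (library size), 0.213 (liver), 0.0349 (length) and 0.27 (without both), for plg 0.115, 0.158 and 0.0668 and for c8b 0.0169, 0.0771 and 0.0173 (library size, liver, without both), and for f10 0.00728 (liver). Without 1 library the ranges were -0.113 to 0.24 (f7), -0.54 to 0.019 (f7i), -0.173 to 0.248 (f9a), -0.105 to 0.102 (plg), -0.126 to 0.18 (kng1), -0.074 to 0.403 (c7b), -0.233 to 0.0695 (c8b), -0.097 to 0.209 (masp1), -0.049 to 0.252 (f2), -0.00846 to 0.278 (proca) and -0.081 to 0.176 (c8a). The cause was not tested.

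With the replicate block 2 members were higher and 3 lower, as without it. Each library's deviations from its group mean, gene by gene, were compared between the groups. Those of same-numbered libraries correlated at -0.29, -0.22, 0.09 and 0.28, and 1 of the 4 correlated best with its own number. At 3 counts, genes under 0.214 CPM on library totals without TMM scaling cannot be told from 0.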
